A study of Mus musculus with 6 samples.

Results

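The mitochondrial ribosomal proteins were followed in RNA-seq of islets, the hormone-secreting cell clusters of the pancreas, isolated from FXR+/+ mice (labelled WT) and from FXR-/- mice, which lack the bile acid receptor FXR encoded by *Nr1h4*. The members were all rows of the gene count table whose symbol begins with Mrpl or Mrps followed by a digit, with pseudogenes left out. There were 77 members, 48 named Mrpl and 29 named Mrps, among 19342 genes counted. Each genotype had 3 libraries from mice aged 3 months, 1 from a female (female 1) and 2 from males (male 1 and male 2). The methods of the study give C57Bl/6 as the strain of the knockout mice. The labels name no treatment beyond the isolation of the islets and no Cre line, do not describe the knockout as restricted to a tissue, and do not state whether a library pooled mice.

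Mitochondria carry their own ribosomes, which translate the few respiratory chain and ATP synthase proteins that mitochondrial DNA encodes. The RNA of these ribosomes is made in the organelle, but their proteins are encoded in the nucleus, made in the cytosol and imported. The large subunit holds the site where peptide bonds form and the small subunit decodes the mRNA, and both carry many proteins that bacterial ribosomes lack. Beta cells depend on mitochondrial ATP for insulin secretion in response to glucose.

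Between 20629306 and 30139235 counts were assigned to genes per library. As a check of the labels, *Nr1h4* had 333, 274 and 386 counts in FXR+/+ female 1, male 1 and male 2. In FXR-/- it had 140, 145 and 138 counts, so its reads were fewer but present in every library labelled KO. *Ins1* and *Ins2*, the insulin genes that define beta cells, made up 17.5% to 23.9% of all reads counted. The 19 listed genes of acinar cells, the enzyme-secreting cells around the islets, took 5.74% (female 1), 14.2% (male 1) and 5.07% (male 2) in FXR+/+ and 7.36%, 14.7% and 9.20% in FXR-/-. All 19 acinar genes were tested, 17 of them had a value above 0 for FXR-/- over FXR+/+ and 0 had an edgeR adjusted p under 0.05. Within each same-numbered pair the FXR-/- share was the larger. Of 9 beta cell markers, 2 were higher in FXR-/- at an edgeR unadjusted p under 0.05, beside 6.18% of all genes. These were *Mafa* (log2 fold change 0.57, edgeR adjusted p = 0.217) and *Nkx6-1* (0.37, edgeR adjusted p = 0.457). Of the 9 markers 3 were below 0, and 0 were lower at that p. Among 6 alpha and 3 delta cell markers 0 were higher or lower at that p. Of the other cell types, 3 of 4 tested ductal, 4 of 5 endothelial and 4 of 7 macrophage markers were higher at that p. In all these lists 0 markers passed the adjusted test. The summed level of the endothelial markers was 419 to 493 CPM in FXR+/+ and 515 to 834 CPM in FXR-/-, that of the ductal markers 41.8 to 59.9 and 72.4 to 82.4 CPM, and that of the macrophage markers 110 to 148 and 147 to 174 CPM. All 6 stellate and fibroblast markers had a log2 fold change above 0 (median 0.82), with 0 at an unadjusted p under 0.05 in edgeR and a summed level of 41.9 to 146 CPM in FXR+/+ and 116 to 141 CPM in FXR-/-. Of 3 tested B cell markers 1, *Cd79a*, was lower at an unadjusted p under 0.05, where 4.15% of all genes lay (log2 fold change -0.58, edgeR adjusted p = 0.430). The part of these cell types in the values of the members was not tested. In such bulk samples, fewer cells of a type and less RNA per cell cannot be told apart.

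All 77 members were detected in all libraries, with between 109 and 1510 counts per member and library, and all passed the filter on low counts. Together they made up 0.148% to 0.166% of a library. Levels were compared between genes as CPM per kb, that is, CPM (counts relative to the TMM-normalized size of the library) divided by the exonic length in kilobases that the exon table covers. This level ran from 1.89 ± 0.17 (SD, n = 6) for *Mrps25* to 115 ± 14 (SD, n = 6) for *Mrps21*, the mitochondrial form of bacterial protein S21. Below *Mrps21* came *Mrpl24* with 71.3 ± 5.0, *Mrps12*, the decoding-site protein S12, with 54.7 ± 13.5, *Mrpl52* with 53.5 ± 3.1 and *Mrps33* with 51.2 ± 3.8 CPM per kb (SD, n = 6). The lowest library of *Mrps21* (102) lay above the highest library of any other member (79.5, *Mrps12*), whereas the ranges of *Mrps12* (40.7 to 79.5), *Mrpl52* (49.6 to 56.5) and *Mrps33* (45.3 to 55.5) overlapped one another. At the low end lay *Mrpl45* (4.81 ± 0.49), *Mrpl15* (3.37 ± 0.43), *Mrpl35* (2.65 ± 0.12) and *Mrpl19* (2.32 ± 0.21) above *Mrps25*. The last 4 of these genes have between 3626 and 6065 exonic bases against a median of 1043 over the members, and a level per length falls where the annotated length exceeds the transcript that islets use, which was not tested. At the high end, the exonic length was 594 bases for *Mrpl24* and 302 for *Mrpl52*, beside reference transcripts of 1226 and 418 bases. A level per length rises where the length used falls short of the transcript, so these 2 ranks are uncertain. The median level was 16.3 CPM per kb over the 50 members of the large subunit and 16.2 over the 26 of the small subunit. The remaining member, *Mrps36*, now counted as a part of the 2-oxoglutarate dehydrogenase complex rather than of the ribosome, had 20.2 CPM per kb.

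**Figure D1:**
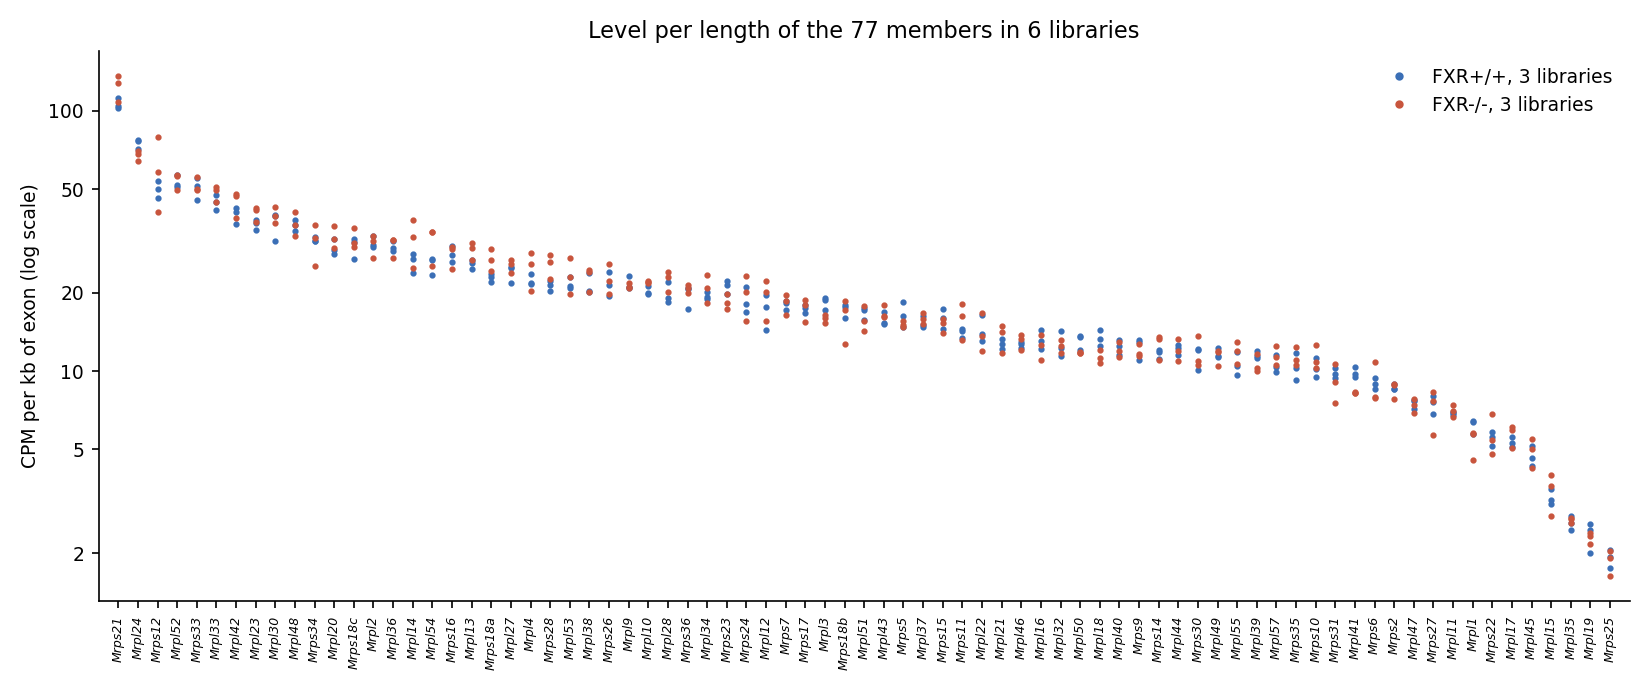
Level of each member in CPM per kb of exon (vertical, log scale) in each of the 6 libraries (points, FXR+/+ blue and FXR-/- red), ordered by mean. *Mrps21* lies above the others at 115 on average and *Mrps25* is lowest at 1.89, and the colours are mixed along the order.

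The genotype comparison asked whether the loss of FXR changed this machinery. No member was called in FXR-/- against FXR+/+ islets at an edgeR adjusted p under 0.05, and the lowest adjusted p of a member was 0.450. Over all 14619 genes tested the same fit called 0%. At an unadjusted p under 0.05, edgeR had 1 member higher in FXR-/-, *Mrps21*, where 6.18% of all genes lay, and 1 member lower, *Mrpl41*, where 4.15% of all genes lay. Both shares of the members, 1.30% each, were below these backgrounds. The estimates of the members ran from -0.25 (*Mrpl41*) to 0.28 (*Mrpl54*) on the log2 scale, that is, from 16.0% below to 21.0% above FXR+/+. Their median was 0.03, beside 0.01 over all genes. Of the members, 46 had a log2 fold change above 0 and 31 below it, so 59.7% were above 0, beside 51.6% of all genes. With scaling by library size alone 23 members were above 0, beside 34.2% of all genes, and the median was -0.06, beside -0.09 for all genes. Neither the split nor the sign of the median held under that scaling. It shifted the log2 fold changes of all genes by a median of -0.09, so the change of sign was not particular to the members. The 95% confidence interval of 72 members lay wholly between -0.5 and 0.5, and its half-width had a median of 0.25. The lowest and highest limits over all members were -0.50 (*Mrpl18*) and 0.61 (*Mrpl14*), and changes within the intervals are left undetermined. These limits hold only for the gene counts and TMM scaling used. With exon counts summed per gene *Mrpl54* had -0.18 (edgeR unadjusted p = 0.413), outside its interval of -0.05 to 0.60. That estimate rests on fewer counts, between 41 and 72 per library in the exon with most, and is itself uncertain. The middle range of the members (quartiles -0.04 and 0.11) was narrower than that of all genes (-0.13 and 0.16), and 23.0% of all genes had a larger absolute log2 fold change than any member.

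**Figure D2:**
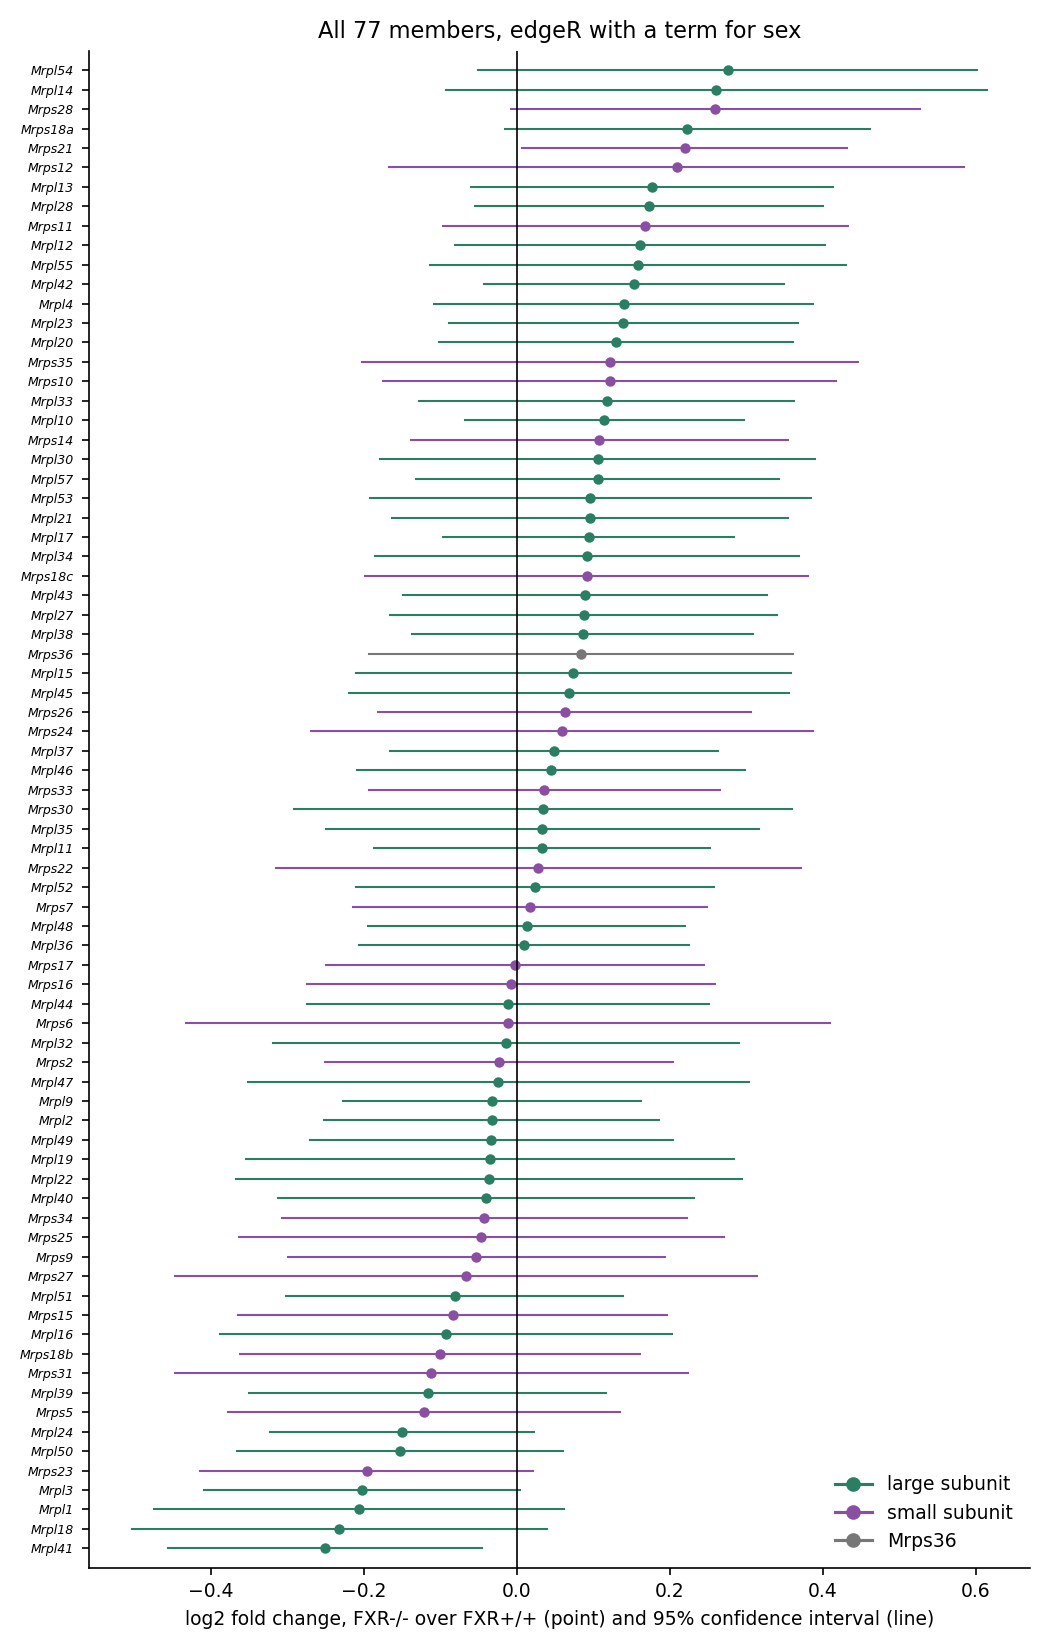
Log2 fold change of FXR-/- over FXR+/+ (point) with its 95% confidence interval (line) for each of the 77 members, from edgeR with a term for sex, coloured by ribosomal subunit. The intervals of 75 members include 0, and both subunits appear throughout the order.

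By subunit, 32 of 50 large-subunit members had a log2 fold change above 0 (median 0.05), and 13 of 26 small-subunit members did (median 0.01). Of the 45 members listed with a bacterial counterpart, 26 were above 0 (median 0.03), and of the other 31 ribosomal members 19 were (median 0.03). *Mrps21* was the 1 member with an unadjusted p under 0.05 among those with a bacterial counterpart, and *Mrpl41* the 1 among the others.

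*Mrpl41*, a large-subunit protein that bacteria lack and that is also known as a Bcl-2-interacting mitochondrial ribosomal protein, had the lowest unadjusted p. It had 25.1, 22.9 and 23.5 CPM in FXR+/+ female 1, male 1 and male 2, and 20.17, 19.93 and 20.03 CPM in FXR-/-. All 3 FXR-/- libraries lay below all FXR+/+ libraries and close to one another (SD 0.12 CPM, beside 1.14 CPM in FXR+/+). The log2 fold change was -0.25 ± 0.09 (SE, n = 3 per genotype), with an edgeR adjusted p of 0.450 (0.256 with the replicate number as a block and 0.479 with DESeq2), so the difference did not pass the test. The gene lies on the minus strand of chr2:24972470-24975098 (GRCm38.p6), and 2 of its exons were counted. The exon with most counts, chr2:24972470-24974681, had a log2 fold change of -0.18 ± 0.14 (SE, edgeR adjusted p = 0.723). Its 250 bases upstream, minus strand of chr2:24975099-24975348, are shown because they belong to the member that stood lowest, and they hold none of the NRF1, ETS or YY1 letters described below.
Mrpl41: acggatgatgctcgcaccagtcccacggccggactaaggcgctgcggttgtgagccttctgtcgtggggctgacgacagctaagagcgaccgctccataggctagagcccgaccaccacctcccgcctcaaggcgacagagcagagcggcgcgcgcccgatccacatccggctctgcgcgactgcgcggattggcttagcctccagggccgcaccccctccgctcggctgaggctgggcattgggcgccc

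*Mrps21* had 42.3, 45.6 and 41.6 CPM in FXR+/+ and 43.8, 55.4 and 52.2 CPM in FXR-/-. The groups overlapped, because the female FXR-/- library lay below male 1 of FXR+/+, while both male FXR-/- libraries lay above all others. The log2 fold change was 0.22 ± 0.09 (SE, edgeR adjusted p = 0.478), and in males alone it was 0.30 (edgeR adjusted p = 0.594). *Mrps21* lies on the minus strand of chr3:95862634-95871514. Its 250 upstream bases, minus strand of chr3:95871515-95871764, are shown because they belong to the member with the lowest p among those above 0, and they hold none of those letters, while an ETS motif lies after the start, within the window searched below.
Mrps21: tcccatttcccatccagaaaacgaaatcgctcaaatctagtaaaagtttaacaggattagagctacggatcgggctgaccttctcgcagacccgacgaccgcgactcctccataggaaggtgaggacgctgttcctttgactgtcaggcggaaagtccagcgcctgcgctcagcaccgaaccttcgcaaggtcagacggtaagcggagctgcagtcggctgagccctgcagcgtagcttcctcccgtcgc

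*Mrpl3*, the large-subunit protein L3 that sits near the peptidyl transferase centre, had 27.4, 24.7 and 27.0 CPM in FXR+/+ and 23.62, 21.98 and 23.06 CPM in FXR-/-. All FXR-/- libraries lay below all FXR+/+ libraries. The log2 fold change was -0.20 ± 0.09 (SE, edgeR adjusted p = 0.480), and it did not pass the test. *Mrpl3* lies on the plus strand of chr9:105053268-105077466. Its 250 upstream bases, plus strand of chr9:105053018-105053267, carry an ETS motif, in capitals, that begins 19 bases before the start.
Mrpl3: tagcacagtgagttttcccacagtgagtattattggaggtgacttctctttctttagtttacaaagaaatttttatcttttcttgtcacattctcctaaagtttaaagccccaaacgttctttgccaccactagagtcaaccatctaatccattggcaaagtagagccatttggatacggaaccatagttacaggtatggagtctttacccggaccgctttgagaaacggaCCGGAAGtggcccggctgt

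Of the 5 further members with the lowest unadjusted p, *Mrps28* and *Mrps18a* were higher in all FXR-/- libraries and *Mrps23*, *Mrpl24* and *Mrpl18* lower, and none passed the adjusted test. *Mrps28*, of the small subunit, had 16.0, 15.5 and 14.6 CPM in FXR+/+ and 16.3, 20.1 and 18.9 CPM in FXR-/- (log2 fold change 0.26 ± 0.11, SE, edgeR adjusted p = 0.480). *Mrps18a* is 1 of 3 mitochondrial relatives of bacterial protein S18 and, despite its name, belongs to the large subunit. It had 19.9, 20.4 and 19.1 CPM in FXR+/+ and 21.0, 25.5 and 23.0 CPM in FXR-/- (0.22 ± 0.10, SE, edgeR adjusted p = 0.487). In both genes the female pair differed least.

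*Mrps23*, of the small subunit, had 36.3, 32.5 and 35.0 CPM in FXR+/+ and 28.4, 32.3 and 29.9 CPM in FXR-/-, and the gap between the groups was set by male 1 of both genotypes. *Mrpl24*, the large-subunit protein L24, had 42.2, 46.0 and 45.5 CPM in FXR+/+ and 38.2, 40.4 and 41.7 CPM in FXR-/-. *Mrpl18*, the large-subunit protein L18, had 11.9, 12.7 and 13.7 CPM in FXR+/+ and 10.8, 10.3 and 11.5 CPM in FXR-/-. Their log2 fold changes were -0.20 ± 0.09, -0.15 ± 0.07 and -0.23 ± 0.12 (SE, edgeR adjusted p = 0.491, 0.496 and 0.501). Exons of *Rrnad1* on the other strand overlap 48.5% of the bases of the reference transcript of *Mrpl24*. Since the counting was not stated to use strand, reads of the 2 genes cannot be told apart there.

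**Figure D3:**
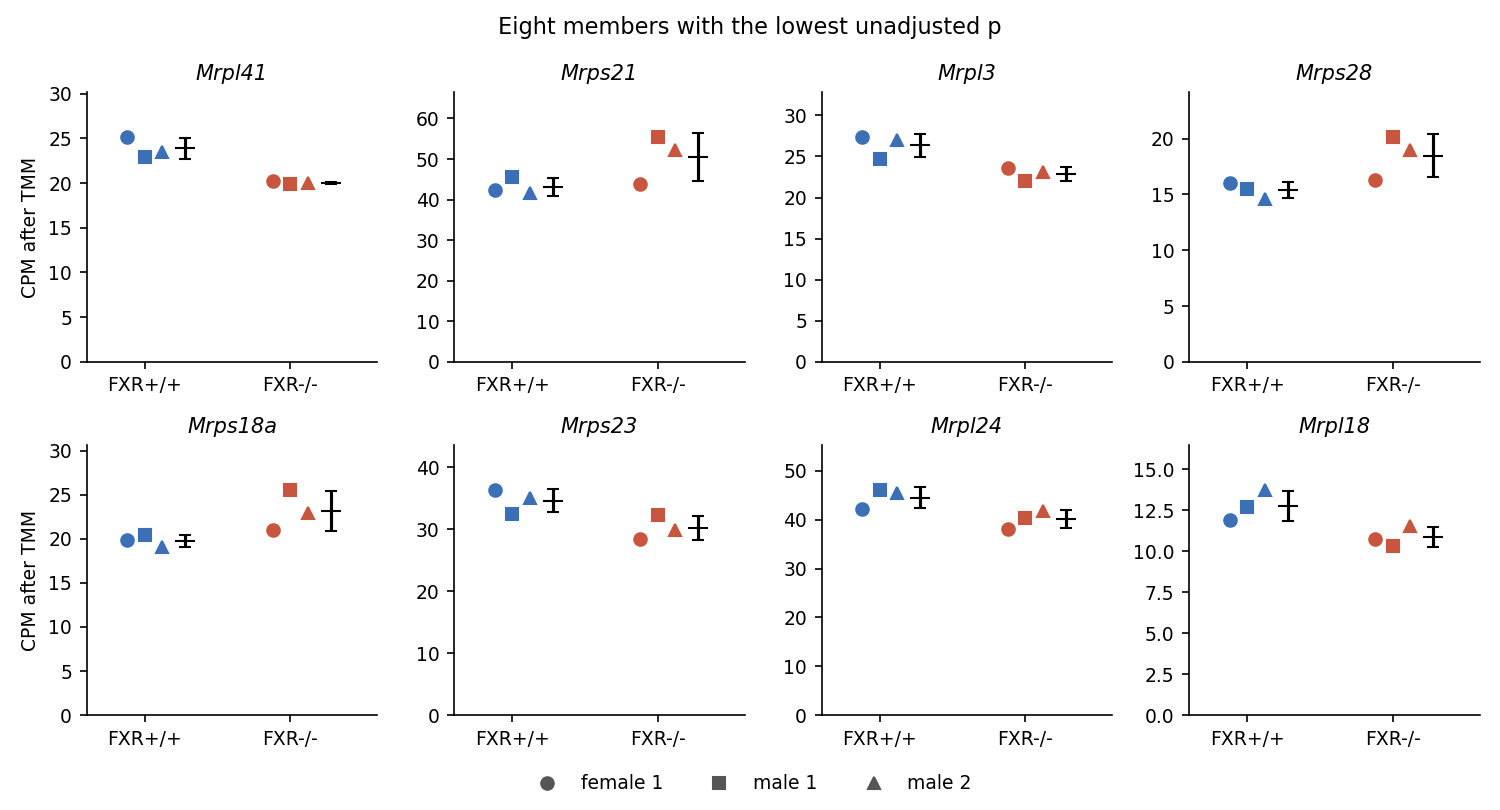
CPM after TMM normalization in each library of the 8 members with the lowest unadjusted p, for FXR+/+ (blue) and FXR-/- (red), with a marker shape for each replicate and the mean ± SD of each genotype in black. The genes were picked by that p, which favours genes without overlap. The genotypes do not overlap in 7 of the 8 genes, *Mrps21* being the one that overlaps. Over all genes tested, 8.02% do not overlap with FXR-/- higher and 7.37% with FXR-/- lower. The SDs of *Mrps21*, *Mrps28* and *Mrps18a* are clearly wider in FXR-/-.

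Across the family, the CPM of the genotypes did not overlap in 4 members with FXR-/- higher (*Mrpl10*, *Mrpl13*, *Mrps18a* and *Mrps28*), 5.19% of the members beside 8.02% of all genes. They did not overlap in 6 members with FXR-/- lower (*Mrpl18*, *Mrpl24*, *Mrpl3*, *Mrpl41*, *Mrpl50* and *Mrps23*), 7.79% of the members beside 7.37% of all genes. The first share was below the background and the second near it. With scaling by library size alone, 3 members did not overlap with FXR-/- higher (3.90%, beside 4.25% of all genes) and 10 with FXR-/- lower (13.0%, beside 7.24% of all genes). With 3 libraries against 3, an exact two-sided permutation test of 1 gene cannot go below p = 0.1. *Mrpl10*, which anchors the stalk of the large subunit, had between 33.4 and 35.6 CPM in FXR+/+ and between 36.5 and 37.4 CPM in FXR-/-. It varied least of all members, with a coefficient of variation within genotypes of 2.45% on average, against a median of 8.09% for the members and 10.9% for all genes.

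Among members chosen for their role, *Mrpl12*, the stalk protein L7/L12 to which translation factors bind, had 13.6, 18.6 and 16.8 CPM in FXR+/+ and 14.8, 21.0 and 19.1 CPM in FXR-/- (log2 fold change 0.16, 95% confidence interval -0.08 to 0.40). Each FXR-/- library was above its same-numbered FXR+/+ library, and the groups overlapped because the females were low in both. *Mrps12* had 30.9, 33.5 and 35.7 CPM in FXR+/+ and 27.1, 53.0 and 38.6 CPM in FXR-/- (0.21, interval -0.17 to 0.59). It had the widest spread within genotypes of all members (coefficient of variation 19.97%), with male 1 of FXR-/- highest and the female of FXR-/- lowest. *Mrpl11*, which lies at the base of the stalk, had between 19.1 and 21.4 CPM in all 6 libraries (interval -0.19 to 0.25). *Mrpl37* and *Mrpl44*, proteins that bacterial ribosomes lack, had intervals of -0.17 to 0.26 and -0.27 to 0.25. *Mrps5* and *Mrps16*, small-subunit proteins with bacterial counterparts, had intervals of -0.38 to 0.14 and -0.27 to 0.26.

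The 3 relatives of bacterial S18 differed from one another in level and estimate. *Mrps18b* had 16.8, 18.5 and 18.9 CPM in FXR+/+ and 13.4, 18.1 and 19.5 CPM in FXR-/- (log2 fold change -0.10, interval -0.36 to 0.16), the female FXR-/- library alone being low. *Mrps18c* had 16.2, 15.7 and 13.5 CPM in FXR+/+ and 15.1, 17.7 and 15.6 CPM in FXR-/- (0.09, interval -0.20 to 0.38). Per length, *Mrps18c* was highest at 31.1 CPM per kb, *Mrps18a* had 24.9 and *Mrps18b* 16.6. Exons of other annotated genes overlap 59.1% of the reference transcript of *Mrps18b* and 27.3% of that of *Mrps18c*, so these levels are uncertain. *Mrps22*, *Mrps27*, *Mrps30* and *Mrps36* had log2 fold changes of 0.03, -0.07, 0.03 and 0.08, and all 4 intervals included 0.

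After TMM normalization, the median member stood lower in FXR-/- in the female pair of libraries and higher in both male pairs. The plot of each library against the FXR+/+ mean shows the female FXR-/- library below it and both male FXR-/- libraries above it. Taken pair by pair, the median log2 ratio of FXR-/- over FXR+/+ was -0.09 for female 1 (19 members above 0, 58 below), 0.06 for male 1 (52 above, 25 below) and 0.14 for male 2 (61 above, 16 below). With scaling by library size alone, the medians were -0.08, -0.08 and -0.02, so both male pairs turned below 0, and the medians of all genes were 0.01, -0.14 and -0.13. After TMM normalization all genes had medians of 0.00274, -0.00253 and 0.0224 in the same pairs. The members' share of all counts was 0.166%, 0.154% and 0.160% in FXR+/+ and 0.156%, 0.148% and 0.156% in FXR-/-, lower in FXR-/- in every pair. By CPM after TMM, the female FXR-/- library was the lowest of the 6 for 35 members and the highest for 2. Male 1 and male 2 of FXR-/- were the highest for 29 and 23 members. The summed CPM of the members was 1546, 1573 and 1524 in FXR+/+ female 1, male 1 and male 2, and 1452, 1660 and 1654 in FXR-/-.

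**Figure D4:**
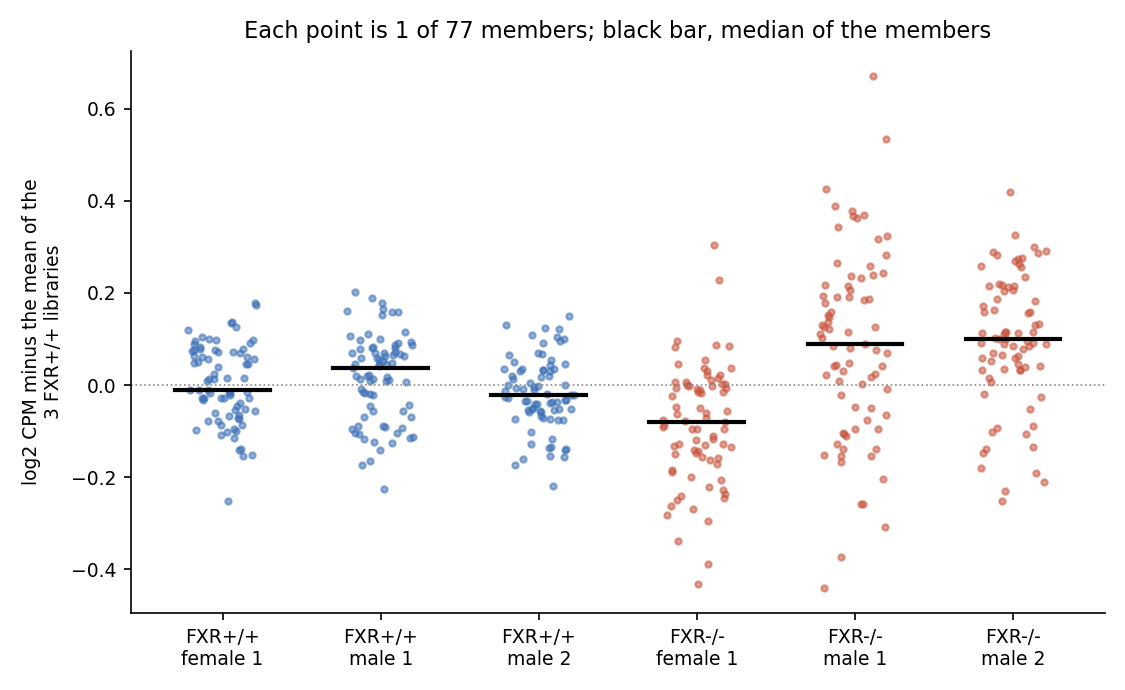
Log2 CPM of each member (points) minus its mean over the 3 FXR+/+ libraries, by library, with the median of the members as a black bar. The FXR+/+ libraries are centred on their own mean and have medians of -0.01, 0.04 and -0.02, while the FXR-/- medians are -0.08 for female 1, 0.09 for male 1 and 0.10 for male 2 after TMM normalization, and with library size alone the medians of both male pairs lay below 0.

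With males alone, the median log2 fold change of the members was 0.10 (0.01 over all genes), and 59 of 77 were above 0, beside 51.6% of all genes. In that fit 5 members had an edgeR unadjusted p under 0.05, all higher in FXR-/- (*Mrpl14*, *Mrpl54*, *Mrps12*, *Mrps21* and *Mrps28*), where 4.76% of all genes lay, and the lowest adjusted p of a member was 0.581. *Mrpl54*, of the large subunit, had 15.7 and 13.7 CPM in the FXR+/+ males and 20.1 CPM in both FXR-/- males, and 15.8 and 14.8 CPM in the females (males alone, log2 fold change 0.46, edgeR adjusted p = 0.581). A model with an interaction term for genotype by sex tested whether the genotypes differed by another amount in the female. It had an edgeR unadjusted p under 0.05 in 0 members, beside 1.48% of all genes, and the lowest adjusted p of a member was 1.00. The interaction estimate was below 0 in 65 of the 77 members and in 50.4% of all genes, with medians of -0.20 and -0.0025. The term rests on 1 female library per genotype, and the sex of a mouse cannot be told apart from that library.

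Female and male libraries were also compared over both genotypes. No member passed an edgeR adjusted p under 0.05, which 0.0547% of all genes did (lowest adjusted p of a member, 0.552). At an unadjusted p under 0.05, edgeR had 4 members lower in the females, *Mrpl12*, *Mrps18b*, *Mrpl42* and *Mrps12*, 5.19% of the members beside 3.85% of all genes. It had 0 members higher in the females, beside 3.63% of all genes. *Mrpl12* averaged 14.2 CPM over the 2 females and 18.9 CPM over the 4 males, and both females lay below all males (log2 difference -0.41 ± 0.11, SE, edgeR adjusted p = 0.552). *Mrpl42*, of the large subunit, had 24.5 and 25.7 CPM in the females and between 27.2 and 31.9 CPM in the males (-0.24 ± 0.09, SE, edgeR adjusted p = 0.643). The difference between females and males was below 0 for 57 of 77 members (median -0.08), beside 50.6% of all genes (median -0.0030).

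Longer members had lower fold changes, and so had longer genes in general. The exonic length of the members ran from 302 (*Mrpl52*) to 6712 bases (*Mrpl17*), with a median of 1043 beside 2672 for all genes tested. Spearman's rho between length and log2 fold change was -0.39 across the 77 members and -0.17 across 14609 genes, as a description, since the genes share the same libraries. With exon counts summed per gene it was -0.24 across the members and -0.13 across all genes, and Pearson's r with log2 length across the members was -0.12 in place of -0.35. In members of up to 800 bases, 17 of 22 were above 0 and their median was 0.10, and all genes of that length had a median of 0.09. Between 800 and 1600 bases, 21 of 37 members were above 0 (median 0.02, beside 0.05 for all genes). Between 1600 and 3200 bases 5 of 12 were above 0, and above 3200 bases 3 of 6. The medians of all genes in these last 2 classes were 0.02 and -0.04.

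**Figure D5:**
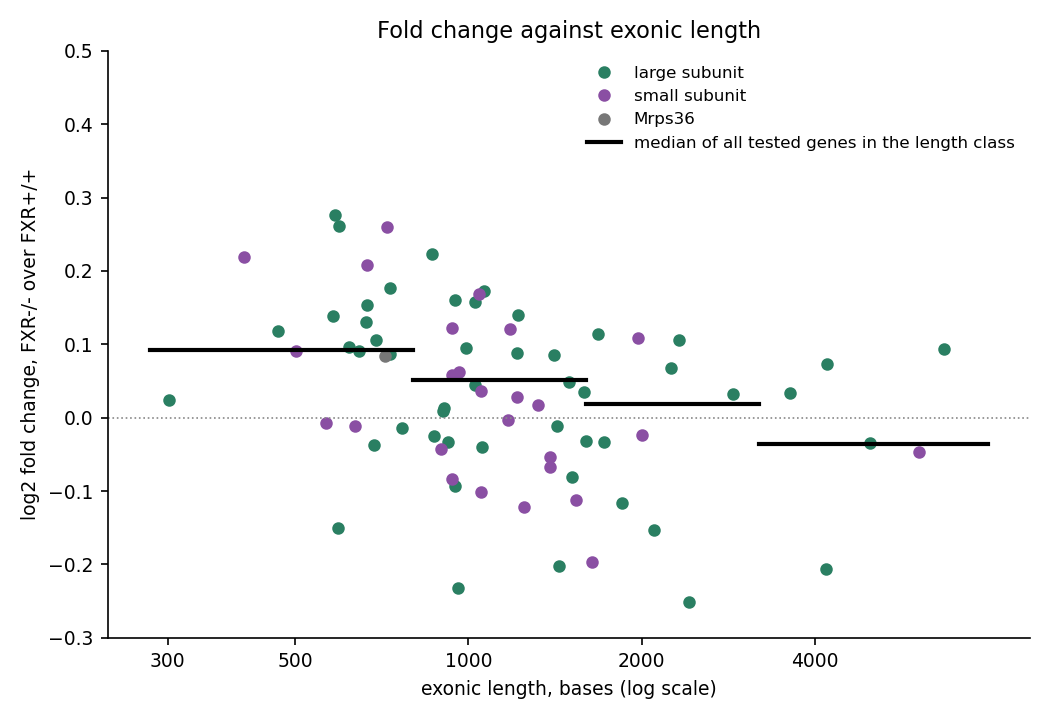
Log2 fold change of FXR-/- over FXR+/+ against exonic length in bases (log scale) for each member, coloured by subunit, with the median of all tested genes in each of 4 length classes as a black line. The highest members are short, and the line steps down from 0.09 to -0.04.

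The same relation differed between libraries. Against the mean of FXR+/+, rho between length and log2 CPM across the members was 0.08, -0.25 and 0.23 in FXR+/+ female 1, male 1 and male 2, and -0.04, -0.40 and -0.37 in FXR-/-. Across all genes with a length it was 0.06, -0.23 and 0.19 in FXR+/+ and 0.08, -0.20 and -0.24 in FXR-/-. The acinar share was 5.74%, 14.2% and 5.07% in FXR+/+ and 7.36%, 14.7% and 9.20% in FXR-/-. Libraries with rho above 0 over all genes had shares of 5.07% to 7.36%, and those with rho below 0 had 9.20% to 14.7%. With a term for acinar RNA in the fit, rho was -0.30 across members and -0.10 across all genes. With each library left out in turn, rho across members ran from -0.45 (without either female) to -0.27 (without FXR+/+ male 2, with the smallest acinar share). It was -0.28 without FXR-/- male 1 and -0.39 without FXR+/+ male 1, the libraries with the largest acinar shares. Across all genes it ran from -0.20 (without FXR-/- female 1) to -0.05 (without FXR+/+ male 2). The part of acinar RNA or of RNA quality in this relation was not tested.

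The promoters of the members were compared with those of all genes, since nuclear genes for mitochondrial proteins are known targets of NRF1, of the ETS factor GABPA and of YY1. The windows were those of RefSeq for GRCm38.p6, from 250 bases before to 50 after the start of the entry, and 68 members had an entry, with 74 windows. This start is not always that of the annotated gene. For *Mrpl22* and *Mrpl9* it lies inside the gene, which begins at chr11:58170043 and at chr3:94443154. The letters searched on both strands were GCGCATGCG for NRF1, CCGGAAG for ETS factors, ATGGCGG for YY1 and GTCANTGAC for an inverted repeat of the type FXR binds. NRF1 letters were in the windows of 7 members, 10.3% of those with an entry, and in 3.80% of the 11560 tested genes with an entry. ETS letters were in 25 members (36.8%, beside 18.4% of tested genes) and YY1 letters in 13 (19.1%, beside 8.64%). Over all 32851 windows the shares were 1.75%, 8.86% and 4.05%. The inverted repeat was in 0 members, beside 0.363% of tested genes and 0.387% of all windows, which says only that these letters are not in these windows. At least 1 of the first 3 motifs was in 36 members (52.9%, beside 27.6% of tested genes), and *Mrpl22* held all 3. A match is a description of letters, not of binding.

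The 7 members with NRF1 letters are shown with 10 bases on either side, 5′ to 3′ on the strand of the gene, because this was the rarest of the 3 motifs. The motif is in capitals, with the 10th base of the palindrome where both strands match. The windows lie at chr3:94443298-94443326 (plus strand, *Mrpl9*), chr11:97041437-97041465 (plus, *Mrpl10*), chr7:105811080-105811108 (minus, *Mrpl17*), chr11:58171621-58171649 (plus, *Mrpl22*), chr13:14613106-14613134 (minus, *Mrpl32*), chr16:84735351-84735379 (minus, *Mrpl39*) and chr17:35916646-35916674 (minus, *Mrps18b*) of GRCm38.p6.
Mrpl9: aggcgcagctGCGCATGCGCggggtcctt
Mrpl10: cccagctccaCGCATGCGCatagcggccc
Mrpl17: ccgagttactGCGCATGCGtcctctgaga
Mrpl22: gcctcggactGCGCATGCGtatagtcagc
Mrpl32: tttgacccttGCGCATGCGCaagaggggc
Mrpl39: aaggagaggcGCGCATGCGCccccgcgtg
Mrps18b: aacggcccgaCGCATGCGCactgggagca

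In these windows the motif began between 11 (*Mrpl17*) and 224 (*Mrps18b*) bases before the start. Of these 7 members, 2 had a log2 fold change above 0, and their median was -0.03, beside 0.03 for the 61 members with an entry and without the letters. The 25 members with ETS letters had a median of 0.06 (17 above 0) and the 13 with YY1 letters a median of 0.03 (7 above 0). These medians were not tested against one another, and each is smaller than the median half-width of the interval of a single member (0.25).

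The other genes of mitochondrial translation were counted from lists of their roles, and none passed an edgeR adjusted p under 0.05. For comparison, 51.6% of all genes had a log2 fold change above 0, with a median of 0.01. Whether any list differed from all genes was not tested. Of the ribosomal proteins under other symbols, 6 were tested and 0 had an unadjusted p under 0.05 in edgeR (median log2 fold change 0.01). Their lowest p values belonged to *Gadd45gip1*, with 26.7 ± 3.2 CPM in FXR+/+ and 29.5 ± 3.0 in FXR-/- (SD, n = 3), and *Ptcd3*, with 23.1 ± 1.4 and 21.2 ± 2.2. Of 13 translation factors, 11 had a log2 fold change below 0 and 0 an unadjusted p under 0.05 (median -0.13). *Mtif2*, the initiation factor, had 30.5 ± 0.6 CPM in FXR+/+ and 27.4 ± 1.7 in FXR-/-, and *Gfm2*, which takes part in ribosome recycling, had 34.9 ± 0.6 and 31.6 ± 1.5.

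Of 20 mitochondrial aminoacyl-tRNA synthetases and amidotransferase subunits, which charge the tRNAs, 12 were below 0 (median -0.05). At an unadjusted p under 0.05 in edgeR, 2 were lower in FXR-/-, where 4.15% of all genes lay. These were *Rars2*, for arginine, with 32.7 ± 1.6 CPM in FXR+/+ and 27.2 ± 2.1 in FXR-/- (log2 fold change -0.27 ± 0.09, SE, edgeR adjusted p = 0.450), and *Hars2*, for histidine, with 24.3 ± 2.1 and 20.4 ± 1.0 (-0.25 ± 0.10, SE, edgeR adjusted p = 0.480). Of 24 genes of ribosome assembly and rRNA modification, 15 were below 0 (median -0.04), and 0 had an unadjusted p under 0.05. In that list *Trub2* had 17.0 ± 0.6 and 14.6 ± 2.4 CPM, and *Rbfa*, an assembly factor of the small subunit, had 9.77 ± 0.08 and 11.2 ± 0.1 CPM. Of 15 genes of mitochondrial transcription and mRNA stability, 10 were below 0 (median -0.05), and 0 had an unadjusted p under 0.05. *Tfb2m*, a mitochondrial transcription factor, had 17.9 ± 1.9 and 15.1 ± 1.3 CPM, and *Mterf3* had 19.1 ± 2.0 and 16.5 ± 0.9. The mRNAs that mitochondrial DNA encodes were not analysed here.

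The exon counts gave the members less depth. They held 32.7% of the gene counts of the members, and in the median member 89.5% of them fell in 1 exon. Of 379 member exons 100 could be tested, and 0 passed an edgeR adjusted p under 0.05 (lowest 0.608). At an unadjusted p under 0.05, edgeR had 2 member exons higher in FXR-/-, beside 4.68% of the 26998 exons tested, and 0 lower, beside 3.10%. These were an exon of *Mrps26* at chr2:130563757-130563990 (7, 15 and 14 counts in FXR+/+ and 16, 21 and 28 in FXR-/-) and an exon of *Mrps28* at chr3:8923587-8923857 (10, 11 and 9 counts against 16, 22 and 23).

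The same genotype comparison was run with the replicate number as a block and with DESeq2. With the block, 0 members and 0.157% of all genes had an edgeR adjusted p under 0.05. With DESeq2, 0 members and 1.21% of all genes did. The lowest adjusted p of a member over all alternatives was 0.256, for *Mrpl41* with the block.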

How the data were processed

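Poly(A) RNA-seq libraries of islets, 3 per genotype, were analysed from the counts per gene that the authors deposited, which are whole numbers without normalization. The authors also deposited counts per exon. The submitters' processing notes name HISAT, and the counter, its use of strand and the annotation are not given in the sources used here. Tables that hold the authors' own comparison (means, fold changes, p-values) were not used. All columns of counts per library were used.

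Genes were filtered with filterByExpr (minimum count 10, minimum total 15), scaled by TMM and tested in R 4.3.3 with edgeR 4.0.16 (glmQLFit, glmQLFTest) with terms for sex and genotype. The p-values were adjusted by Benjamini and Hochberg over all 14619 genes, and called under 0.05. Standard errors came from the F statistic, with 3 residual and 4.43 prior degrees of freedom. Exonic length is the number of bases that the exons of a gene cover in the deposited exon table. Positions and promoters are those of RefSeq for GRCm38.p6. The fits were also run on simulated counts with a fixed dispersion and known changes larger than any estimate of a member. Those runs do not measure the power for changes as small as those of the members. DESeq2 1.42.0, other scalings, filters and terms, males alone and each library left out in turn were the alternatives.

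Same-numbered libraries of the 2 genotypes are not stated by the labels to be paired. As a description, the deviations of same-numbered libraries from their genotype means had correlations over all genes of 0.361 for female 1, 0.367 for male 1 and 0.323 for male 2, and of 0.0200 or below otherwise. Across the members the same-numbered correlations were 0.408, 0.276 and 0.121. What same-numbered libraries share, beyond sex, was not tested. The labels do not say that libraries come from separate mice, so p-values measure the spread between these libraries. The members and gene lists were chosen with earlier results of these data known. Genes named were the 8 members with the lowest unadjusted p, the 5 highest and 5 lowest per length, members with a fixed role, those called in an alternative (0), the lowest p for sex, and 2 genes of each other list. *Mrpl14*, *Mrpl54*, *Mrps26*, *Mrpl10*, *Mrpl13* and *Mrpl50* were singled out after their values were seen, except that *Mrpl10* is also a role gene.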

Additional observations from a re-analysis of the deposited data

Results flagged for a closer look

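After TMM normalization the members had medians of opposite sign in the female and the male pairs. The median log2 ratio of FXR-/- over FXR+/+ was -0.0898 in the female pair, 0.0553 in the pair male 1 and 0.137 in the pair male 2. With scaling by library size alone the medians were -0.0840, -0.0781 and -0.0192, so the sign no longer differed, beside medians of all genes of 0.00851, -0.136 and -0.134. This difference of the medians was not tested, and each sex has few libraries, with 1 female per genotype. The share of acinar RNA was 5.74% in FXR+/+ and 7.36% in FXR-/- in the female pair, 14.2% and 14.7% in male 1, and 5.07% and 9.20% in male 2, and its part in the result was not tested.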

How the results depend on the processing

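The number of members with an adjusted p under 0.05 stayed 0 in each of the 19 alternatives, for genotype, and in those run for sex. The median log2 fold change of the members was 0.0344 and moved to -0.0607 with library size alone. That scaling left 23 members above 0 in place of 46, beside 34.2% of all genes in place of 51.6%. The median of the members was -0.0898 in the female pair alone and 0.137 in the pair male 2 alone. With library size alone it was -0.084 in the female pair, -0.0781 in male 1 and -0.0192 in male 2. The values by pair were added after the data were seen, as was the count of members without overlap with library size alone, 10 in place of 6 with FXR-/- lower and 3 in place of 4 with FXR-/- higher. Adding the replicate number as a block gave 0.0334, 46 members above 0 and no change of any call. With each library left out in turn, the median ran from 0.00275 (without FXR+/+ male 2) to 0.102 (without the female of either genotype), and between 41 and 59 members were above 0. Members with an unadjusted p under 0.05 in edgeR that were higher in FXR-/- numbered 1, but 0 with library size alone, a term for acinar RNA or DESeq2, 2 with legacy dispersion estimates, 5 in males alone, and from 0 (without any 1 male library) to 5 (without the female of FXR-/-, 4 without that of FXR+/+) with a library left out. Those lower in FXR-/- numbered 1, but 2 with DESeq2 size factors, legacy dispersion estimates or counts without the 20 most abundant genes, 4 (5.19%) with library size alone, where 7.32% of all genes lay, 0 in males alone or with exon counts summed per gene, and from 0 (without either female or FXR-/- male 2) to 3 (without FXR+/+ male 1) with a library left out. Over the alternatives, 2.99% to 9.83% of all genes were higher and 2.35% to 7.32% lower at that p. Of 27 named members, 11 changed sign in at least 1 alternative, and their adjusted p never fell below 0.05. With library size alone the log2 fold change was -0.0612 for *Mrpl11*, -0.0461 for *Mrpl37*, -0.00285 for *Mrps18c*, -0.0662 for *Mrps22*, -0.0607 for *Mrps30* and -0.0142 for *Mrps36*. In males alone it was 0.0872 for *Mrpl44*, 0.0746 for *Mrps16*, 0.0116 for *Mrps18b*, -0.0723 for *Mrps22* and 0.144 for *Mrps27*. With exon counts summed per gene it was 0.119 for *Mrpl44* and *Mrps16*, -0.676 for *Mrps18c* and -0.177 for *Mrpl54*. The exon counts of *Mrps18c* were low, at most 6 per exon and library, so its value is uncertain. With a term for acinar RNA the log2 fold change was -0.0746 for *Mrps30*. The cause of these changes was not tested. With each library left out in turn, the values of members that changed sign ran from -0.00648 to 0.081 (*Mrpl11*), -0.0843 to 0.0876 (*Mrpl44*), -0.0906 to 0.0751 (*Mrps16*), -0.165 to 0.0119 (*Mrps18b*), -0.072 to 0.1 (*Mrps22*), -0.174 to 0.144 (*Mrps27*), -0.104 to 0.122 (*Mrps30*) and -0.0104 to 0.147 (*Mrps36*). With between 109 and 1510 counts per member and library, the 95% confidence interval of a single member had a median half-width of 0.25 on the log2 scale.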

Other observations

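*Mrpl42* and *Mrpl54* are the members on the chromosome of *Nr1h4* (chr10:89454234-89533645, GRCm38.p6). *Mrpl42* (chr10:95480805-95501949) lies 5.95 Mb from it and *Mrpl54* (chr10:81264722-81266926) 8.19 Mb. Their log2 fold changes were 0.15 (95% confidence interval -0.04 to 0.35) and 0.28 (-0.05 to 0.60), and both intervals include 0.

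*Mrpl46* (chr7:78775341-78783089, minus strand) and *Mrps11* (chr7:78783131-78792988, plus strand) have 41 bases between them at these positions, and their log2 fold changes were 0.04 and 0.17, neither of which passed the test. In the GENCODE annotation, exons of *Mrpl46* overlap 173 bases (16.4%) of the *Mrps11* transcript. Since the counting was not stated to use strand, reads of the 2 genes cannot be told apart there. Exons of other genes overlap part of the reference transcripts of 27 members. They overlap over 50% of those of *Mrpl53*, *Mrps25*, *Mrps34* and *Mrps18b*, whose counts are uncertain for that reason.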
